A study of Homo sapiens with 6 samples.

Results

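MALAT1, a long noncoding RNA that stays in the nucleus, was lowered in WI38 cells with either of a pair of antisense oligonucleotides, AS2 or AS1. Here the 2 AS2 arrays are set directly against the 2 AS1 arrays, 4 of the 6 exon arrays of the series, so that differences tied to the oligonucleotide used can be described for the same target RNA. The 4 arrays were chosen by their titles. The AS2 cells and the AS1 cells received their oligonucleotide at 100 nM, in 2 transfections 24 h apart with a cationic lipid, and the Ctr cells of the other 2 arrays received a control oligonucleotide in the same way, so all 6 samples had been transfected with an oligonucleotide. WI38 is an established line of normal human lung fibroblasts with a finite life span, grown here in medium with 10% serum. The sources used here do not say whether the arrays of a group come from separate cultures, so the p-values cover the spread among these samples alone, which may be technical.

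Antisense oligonucleotides made of DNA pair with an RNA in the cell, and RNase H, an enzyme that cuts the RNA strand of a DNA and RNA duplex, then destroys the target. A phosphorothioate backbone, which both MALAT1 oligonucleotides carry, protects them from nucleases and also lets them bind proteins. Partial pairing with other RNAs, binding to proteins and sensing by the innate immune system, which answers with interferon and the genes interferon induces, are known properties of such molecules that depend on sequence, and a comparison of several oligonucleotides to the same RNA is the usual way to see them.

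The pair of sequences is shown because sequence is what the AS2 and AS1 groups differ in by design. The study's list marks no ends, and they are given as listed, taken as 5′ to 3′, with the longest stretch common to both in capitals.
AS2: atGGAGgtatgacatataat
AS1: gGGAGttacttgccaacttg
Each has 20 bases, and their longest common stretch is 4 bases. AS2 holds 6 G or C bases and 8 A, and AS1 holds 10 G or C bases and 4 A. Neither sequence contains a CpG dinucleotide, the step recognised by the DNA sensor TLR9, and they can pair with each other over at most 3 successive bases. Where each pairs along MALAT1, and whether other transcripts hold similar sites, was not analysed here.

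Expression is given as log2 values, so that 1 unit is a 2-fold difference, and each gene is summarised per array by the mean over its own probesets. Across 15417 genes, 166 (1.08%) differed between AS2 and AS1 at an adjusted p under 0.05 in limma: 88 were higher with AS2 (0.571%) and 78 were lower (0.506%). The AS2 and AS1 arrays did not overlap for any of the 166, a property that 36.3% of all genes tested had. Of the called genes, 21 were more than 2-fold higher and 35 more than 2-fold lower with AS2, and their median difference was 0.87 in size (smallest 0.61). The median difference of all genes in size, 0.11, was below the median gap between the 2 AS2 arrays (0.14), the 2 AS1 arrays (0.17) and the 2 Ctr arrays (0.16). No single probeset of 232479 was called (0%) in limma, although 17640 had an unadjusted p under 0.05. Few calls held with 1 AS2 array left out: without AS2 replicate 1, 13 genes were called, without AS2 replicate 2, 20, and all of these are among the 166. Without either Ctr array 274 were called. Array medians lay between 7.34 and 7.36, and AS1 replicate 1 correlated more closely with AS2 replicate 2 (0.986 over all probesets) than with AS1 replicate 2 (0.985).

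**Figure D1:**
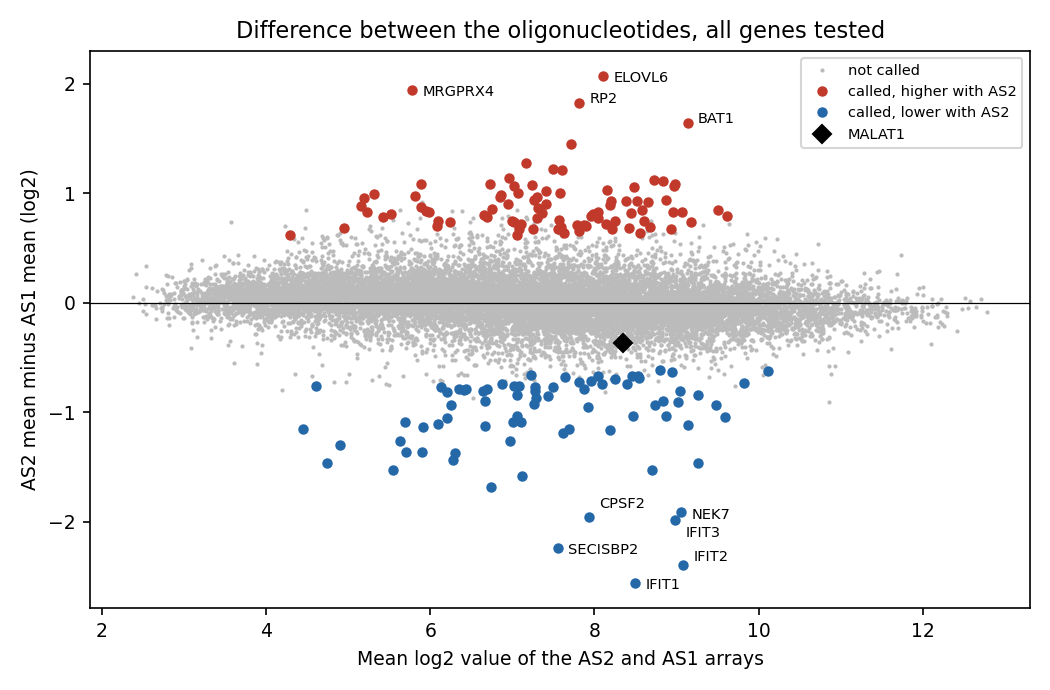
Each point is a gene, with the mean log2 value of the AS2 and AS1 arrays on the horizontal axis and the AS2 mean minus the AS1 mean (log2) on the vertical axis. Red points are the 88 genes called higher and blue points the 78 called lower with AS2, and MALAT1 (black diamond) lies at -0.37, among the genes not called.

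The target RNA itself did not separate the groups. MALAT1 stood at 8.19 and 8.13 on the AS2 arrays, at 9.23 and 7.82 on the AS1 arrays, and at 12.01 and 11.97 on the Ctr arrays. The AS2 values lay between the AS1 values, with AS1 replicate 1 highest and AS1 replicate 2 lowest of the 4. The difference was -0.37 ± 0.33 (SE), with a 95% interval of -1.10 to 0.37 and an adjusted p of 0.863 in limma, an interval that reaches past a 2-fold lower level with AS2 and stops short of a 2-fold higher one. AS1 replicate 1 decided the sign: without it the difference was 0.34 (adjusted p = 0.764 in limma), and without AS1 replicate 2 it was -1.07 (adjusted p = 0.00201).

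Along MALAT1 the groups differed in which probesets kept signal. Probeset 3335177 read 6.93 and 7.26 with AS2, 9.73 and 8.43 with AS1, and 11.97 and 12.03 with Ctr. Its neighbour 3335176 read 6.22 and 6.35 with AS2, 8.51 and 7.11 with AS1, and 10.68 on both Ctr arrays. At both of these every AS2 value lay below every AS1 value, by -1.99 (3335177) and -1.52 (3335176) in the mean. The next probeset, 3335178, ran the other way, with 10.39 and 10.04 with AS2, 9.51 and 7.96 with AS1, and 12.32 and 12.23 with Ctr, a difference of 1.48. The other 8 probesets differed by -0.03 to -0.71 in the mean. None of the 11 was called in limma (adjusted p = 0.303 at 3335177, 0.463 at 3335176 and 0.534 at 3335178), and the order of probesets by number is not known here to follow the direction of transcription.

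**Figure D2:**
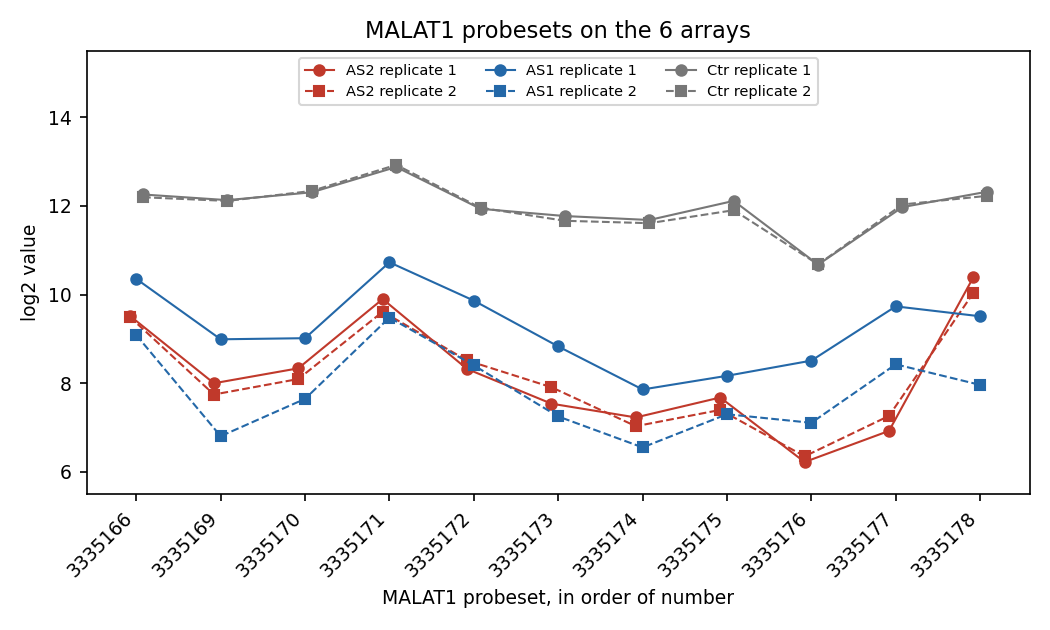
The log2 value of each of the 11 MALAT1 probesets, in order of number, on the 2 AS2 arrays (red), the 2 AS1 arrays (blue) and the 2 Ctr arrays (grey), with replicate 1 as circles and replicate 2 as squares. The AS2 lines lie below both AS1 lines at 3335176 and 3335177 and above both at 3335178.

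The Ctr arrays give a level against which each difference can be placed. Both groups had less MALAT1 than Ctr, and where a difference arose was not tested. Of the 78 genes lower with AS2, 43 lay farther from Ctr with AS2, that is below it, and 35 lay farther from Ctr with AS1, above it. Of the 88 genes higher with AS2, 59 lay farther from Ctr with AS2, above it, and 29 lay farther from Ctr with AS1, below it. Over all genes with the lower mean with AS2, called or not, 3904 lay farther from Ctr with AS2 and 3343 with AS1, so the 78 split much as these did. Over all genes with the higher mean with AS2, 3369 lay farther from Ctr with AS2 and 4801 with AS1, the reverse of the split of the 88. The means of both oligonucleotides lay below Ctr in 23 of the 43 and 14 of the 29. Both lay above it in 41 of the 59 and 22 of the 35. The genes that lay farther below Ctr with one oligonucleotide were bright and had many probesets. The 43 of AS2 had a median of 19 probesets and the 65.5th percentile of Ctr level. The 29 of AS1 had 18 probesets and the 76.5th percentile, against 11 probesets and the 50th percentile over all genes tested. The 59 genes that AS2 took farther above Ctr were dim, at the 28th percentile with 10 probesets, and the 35 that AS1 took farther above it stood at the 45.8th percentile with 13. With the oligonucleotide nearer to Ctr, 33 of the 43 (76.7%) and 28 of the 29 (96.6%) lay within 0.5 of the Ctr mean, as did 29 of the 59 (49.2%) and 23 of the 35 (65.7%), against 87.4% of all genes tested. These are descriptions, since Ctr is shared by both sides. Level and probeset number also bear on which genes can be called in each direction, so they are not read as traits of these genes. In these bulk RNA samples, fewer cells of a type and less RNA per cell cannot be told apart.

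The genes lowest with AS2 include several that lay near Ctr with AS1. SECISBP2, which binds selenoprotein messenger RNAs and lets selenocysteine be inserted, stood at 6.44 and 6.43 with AS2, 8.76 and 8.58 with AS1, and 8.19 and 8.61 with Ctr, a difference of -2.24 ± 0.16 between AS2 and AS1 (adjusted p = 0.000308 in limma). Only the AS2 arrays were low. CPSF2, a subunit of the complex that cleaves messenger RNAs before polyadenylation, stood at 6.95 on both AS2 arrays, 9.04 and 8.76 with AS1, and 9.21 and 9.36 with Ctr (-1.95 ± 0.14 between AS2 and AS1, adjusted p = 0.000308). All 23 CPSF2 probesets and all 9 SECISBP2 probesets were lower with AS2 than with AS1. The kinase NEK7, with roles in mitosis and in the NLRP3 inflammasome, stood at 8.07 and 8.12 with AS2, 10.11 and 9.90 with AS1, and 9.45 and 9.77 with Ctr (-1.91 ± 0.15, adjusted p = 0.000308). Against Ctr these 3 genes fell by 1.97, 2.33 and 1.51 with AS2 (adjusted p = 2.58e-05, 4.28e-06 and 9.34e-05 in limma), and with AS1 they measured 0.27, -0.38 and 0.40 (adjusted p = 0.289, 0.0861 and 0.0898).

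The organic anion transporter SLCO3A1 stood at 5.96 and 5.84 with AS2, 7.59 and 7.57 with AS1, and 7.94 and 8.10 with Ctr. Its AS2 values were the lowest, and its AS1 values were also below both Ctr arrays, with -1.68 ± 0.13 between AS2 and AS1 (adjusted p = 0.000308), a fall of 2.12 with AS2 against Ctr (adjusted p = 4.45e-06) and a fall of 0.44 with AS1 against Ctr (adjusted p = 0.0356). ZDHHC20, an enzyme that attaches palmitate to proteins, was lower with AS2 than with AS1 by -1.58 ± 0.15 (adjusted p = 0.00078). ASAP2, which switches off Arf GTPases, and TMTC1, which attaches mannose to proteins in the endoplasmic reticulum, differed by -1.53 ± 0.13 and -1.47 ± 0.14 (adjusted p = 0.000643 and 0.00078). Each of these was within 0.5 of the Ctr mean with AS1. LEPR, the leptin receptor, stood at 4.12 and 3.90 with AS2, 5.84 and 5.10 with AS1, and 5.5 and 5.64 with Ctr (-1.46 ± 0.21, adjusted p = 0.0117). SLC40A1, the iron exporter ferroportin, stood at 5.33 and 5.91 with AS2, 6.97 and 7.01 with AS1, and 6.15 and 6.61 with Ctr, so the Ctr arrays lay between the others (-1.37 ± 0.20, adjusted p = 0.0118). The calls of SECISBP2, CPSF2, NEK7, SLCO3A1, ZDHHC20, ASAP2 and TMTC1 held without each of the 6 arrays in turn (largest adjusted p = 0.044 in limma). LEPR was not called without AS2 replicate 1 or 2 (largest adjusted p = 0.242, difference -1.83 to -1.09), and SLC40A1 lost its call without AS2 replicate 1 (adjusted p = 0.231, -1.66 to -1.09).

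Lists of genes were also counted by role, and single calls in them are read against the 1.08% of all genes tested that were called. CPSF2 was the only called member of 21 in 3-prime end processing, and SECISBP2 the only one of 23 with the selenoproteins. The 22 selenoprotein genes and factors beside SECISBP2 were thus not called, and the list had a median difference of -0.12. TGFBR3, the betaglycan coreceptor of TGF-beta, was the only called gene of 29 in TGF-beta and BMP signalling, at 7.76 and 7.68 with AS2, 8.55 and 8.38 with AS1, and 8.95 and 8.85 with Ctr (-0.75 ± 0.13, adjusted p = 0.0256). POLR2A, the largest subunit of RNA polymerase II and often used as a reference gene, stood at 8.52 and 8.47 with AS2, 9.12 and 9.10 with AS1, and 9.09 and 9.17 with Ctr (-0.61 ± 0.12, adjusted p = 0.0491). It was the smallest difference among the 166 and the only call among 11 reference genes. POLR2A was not called without any 1 of the 4 AS2 and AS1 arrays (largest adjusted p = 0.406, difference -0.63 to -0.59), and TGFBR3 was not called without AS1 replicate 1 or either AS2 array (largest adjusted p = 0.284, -0.83 to -0.66).

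**Figure D3:**
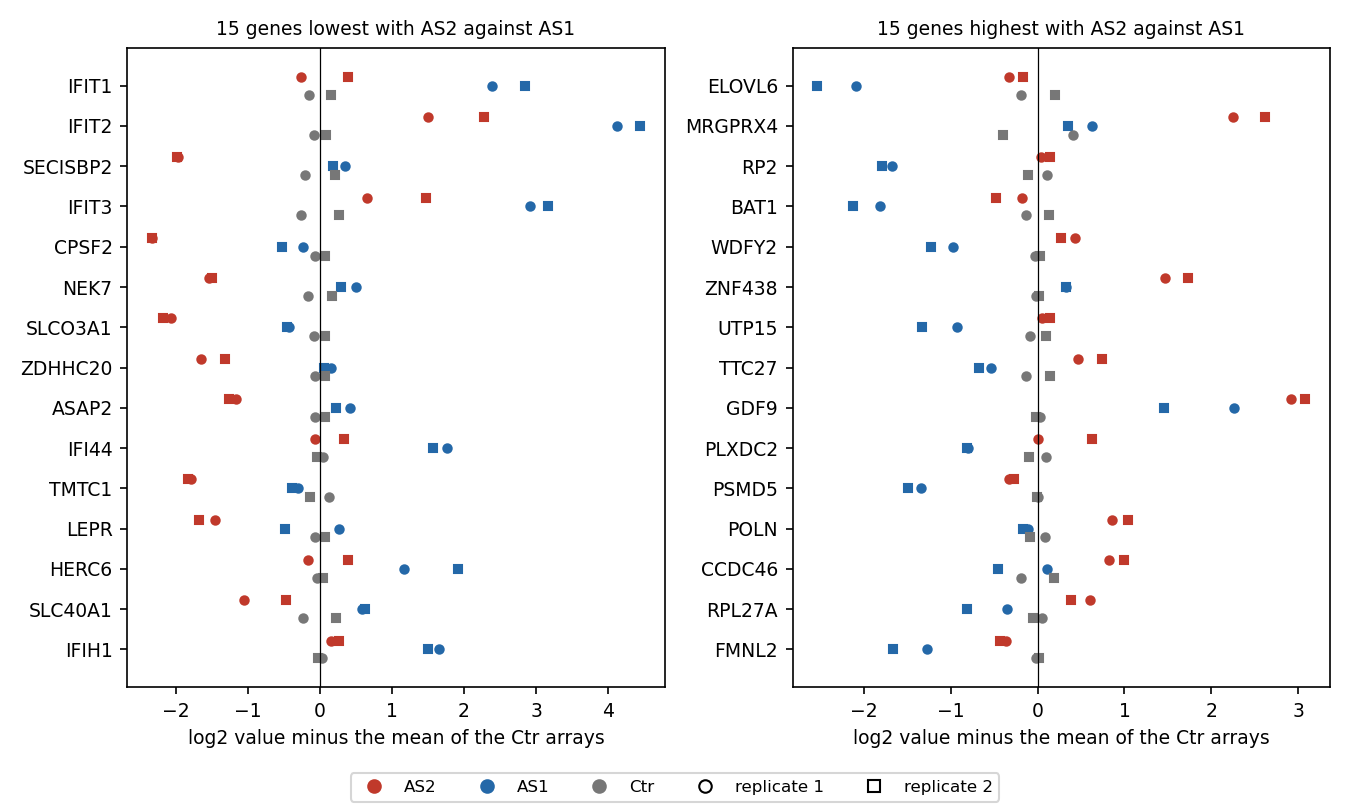
The log2 value on each array minus the mean of the 2 Ctr arrays, for the 15 genes lowest (left) and the 15 highest (right) with AS2 against AS1, with AS2 in red above AS1 in blue and Ctr in grey, replicate 1 as circles and replicate 2 as squares. SECISBP2, CPSF2, NEK7, ZDHHC20 and TMTC1 show AS2 points left of 0 with AS1 points near it, ELOVL6, RP2, BAT1 and PSMD5 show AS1 points left of 0 with AS2 points near it, and the IFIT genes show AS1 points farthest to the right.

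The converse group was low with AS1 and near Ctr with AS2. ELOVL6, which elongates palmitate to longer fatty acids, stood at 9.06 and 9.22 with AS2, 7.29 and 6.84 with AS1, and 9.19 and 9.58 with Ctr, the highest difference of all called genes (2.07 ± 0.18, adjusted p = 0.000643 in limma). The other 23 tested genes of fatty acid synthesis, elongation and desaturation were not called. At 1.08% of all genes called this does not set them apart. The list had a median of -0.06. RP2, which activates the GTPase of ARL3 in the transport of lipid-modified proteins, stood at 8.67 and 8.77 with AS2, 6.96 and 6.84 with AS1, and 8.74 and 8.52 with Ctr (1.82 ± 0.14, adjusted p = 0.000308). BAT1, an RNA helicase of splicing and messenger RNA export also known as UAP56, stood at 10.10 and 9.81 with AS2, 8.47 and 8.16 with AS1, and 10.15 and 10.42 with Ctr (1.64 ± 0.17, adjusted p = 0.00133). Every probeset of these 3 genes (6 of ELOVL6, 7 of RP2 and 14 of BAT1) was higher with AS2 than with AS1. Against Ctr they fell by 2.32, 1.73 and 1.97 with AS1 (adjusted p = 3.78e-05, 3.78e-05 and 5.08e-05), and with AS2 they measured -0.25, 0.09 and -0.33 (adjusted p = 0.426, 0.757 and 0.206).

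WDFY2, an endosomal protein, stood at 8.52 and 8.36 with AS2, 7.12 and 6.86 with AS1, and 8.06 and 8.12 with Ctr (1.45 ± 0.14, adjusted p = 0.000902). UTP15, which acts in the making of the small ribosomal subunit, differed by 1.22 ± 0.16 (adjusted p = 0.00661), PSMD5, an assembly factor of the proteasome, by 1.11 ± 0.13 (adjusted p = 0.00334), and FMNL2, a formin that elongates actin filaments, by 1.07 ± 0.15 (adjusted p = 0.00949). All 3 were lower with AS1 than on either Ctr array, and their AS2 values lay within 0.5 of the Ctr mean. PLXDC2 stood at 8.98 and 9.61 with AS2, 8.17 on both AS1 arrays, and 9.08 and 8.88 with Ctr (1.12 ± 0.19, adjusted p = 0.0208), with AS2 replicate 2 apart from AS2 replicate 1. RPL27A, a protein of the large ribosomal subunit, stood at 9.63 and 9.41 with AS2, 8.67 and 8.21 with AS1, and 9.07 and 8.98 with Ctr (1.08 ± 0.17, adjusted p = 0.0142). The calls of ELOVL6 and RP2 held without each of the 6 arrays in turn (largest adjusted p = 0.0394 and 0.0239). BAT1 and WDFY2 lost their calls without AS2 replicate 1 (adjusted p = 0.0695 and 0.0578), and PLXDC2 without AS2 replicate 2 (adjusted p = 0.242). UTP15, PSMD5, FMNL2 and RPL27A were not called without AS2 replicate 1, nor without AS2 replicate 2 (largest adjusted p = 0.159, 0.098, 0.222 and 0.292), with differences that stayed above 0.85 throughout.

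The kinases ATR and ATM, which signal stalled replication forks and DNA breaks, differed in opposite directions. They were the only called genes of 41 in DNA damage response and repair, against 1.08% of all genes tested. ATR stood at 6.21 and 6.40 with AS2, 5.47 and 5.18 with AS1, and 6.72 and 6.85 with Ctr (0.98 ± 0.15, adjusted p = 0.0127). ATM stood at 5.81 and 6.10 with AS2, 6.92 and 6.56 with AS1, and 7.61 and 7.66 with Ctr (-0.78 ± 0.16, adjusted p = 0.0493). Both kinases were below both Ctr arrays with either oligonucleotide, ATR farther with AS1 and ATM farther with AS2. Of their probesets, 57 of 58 for ATR and 39 of 41 for ATM had the sign of the gene. ATR was not called without either AS2 array (largest adjusted p = 0.242, difference 0.83 to 1.12), and ATM not without AS1 replicate 1 or either AS2 array (largest adjusted p = 0.567, -0.97 to -0.60).

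Interferon-induced genes stood higher with AS1 than with AS2. Of 45 genes of the interferon response and of nucleic acid sensing, 11 (24.4%) were lower with AS2 and 0 were higher, against 0.506% and 0.571% of all genes tested. The list was chosen with earlier results of these data known, so these shares are a description and not a test. The median difference of the list was -0.42, against 0.01 for all genes, and 39 of 45 were negative. IFIT1, which binds the ends of foreign RNAs, stood at 6.89 and 7.55 with AS2, 9.54 and 10.00 with AS1, and 7.01 and 7.31 with Ctr, the lowest difference of all genes called (-2.55 ± 0.22, adjusted p = 0.000643 in limma). Its AS2 values spanned the Ctr values, and both AS1 values were far above. IFIT2, its relative, stood at 7.50 and 8.27 with AS2, 10.12 and 10.44 with AS1, and 5.91 and 6.08 with Ctr (-2.39 ± 0.22, adjusted p = 0.00078), so that both oligonucleotides were above Ctr, AS1 farther. IFIT3 was ordered likewise, at 7.58 and 8.40 with AS2, 9.85 and 10.10 with AS1, and 6.67 and 7.20 with Ctr (-1.99 ± 0.25, adjusted p = 0.00643).

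IFIH1, a cytoplasmic sensor of double-stranded RNA, stood at 4.96 and 5.08 with AS2, 6.46 and 6.31 with AS1, and 4.84 and 4.78 with Ctr (-1.36 ± 0.13, adjusted p = 0.000863). IFI44 and HERC6, both induced by interferon, showed the same order, with -1.53 ± 0.16 and -1.43 ± 0.24 between AS2 and AS1 (adjusted p = 0.00157 and 0.0199). Against Ctr, IFIH1, IFI44 and HERC6 rose by 1.58, 1.67 and 1.54 with AS1 (adjusted p = 4.58e-05, 0.000104 and 0.0015), and measured 0.21, 0.14 and 0.11 with AS2 (adjusted p = 0.317, 0.645 and 0.828). Of the other called members, HERC5, a ligase of the ubiquitin-like ISG15 (-1.36), OASL (-1.26) and RSAD2, the antiviral enzyme viperin (-1.09), rose against Ctr with both oligonucleotides: by 0.99, 0.69 and 1.58 with AS2 (adjusted p = 0.00354, 0.0233 and 0.000653) and by 2.35, 1.95 and 2.66 with AS1 (adjusted p = 3.78e-05, 0.000104 and 4.58e-05). DDX58, the RNA sensor RIG-I, differed in another way, at 6.38 and 6.74 with AS2, 7.53 and 7.76 with AS1, and 7.74 and 7.59 with Ctr (-1.09 ± 0.16, adjusted p = 0.0117), since AS1 was at the level of Ctr and AS2 below it. CXCL10, an interferon-induced chemokine, stood at 3.83 and 3.93 with AS2, 5.31 and 4.74 with AS1, and 4.43 and 4.52 with Ctr (-1.15 ± 0.18, adjusted p = 0.0141).

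The rest of the list did not pass the test. MX1 and OAS2 had differences of -0.72 each (adjusted p = 0.21 and 0.171) and ISG15 of -0.14 (adjusted p = 0.897). The transcription factors of the pathway, STAT2, IRF9, IRF1 and IRF7, measured -0.32, -0.41, -0.33 and -0.11, and TLR9, the sensor of CpG DNA, 0.17. IFNB1 itself was among the dimmest genes of the arrays, at 2.98 and 2.78 with AS2, 3.51 and 3.07 with AS1, and 3.09 and 2.86 with Ctr (-0.41, adjusted p = 0.452). The mean of the list was 6.65 and 6.78 on the AS2 arrays, 7.20 and 7.44 on the AS1 arrays, and 6.70 and 6.65 on the Ctr arrays. Within AS1, replicate 2 was the higher array for 30 of 45 members (8338 of all 15417 genes), and it is also the array with less MALAT1 signal. Within AS2, replicate 2 was the higher for 27 of 45 (6638 of all genes). The part of residual MALAT1 in these differences was not tested. Without AS1 replicate 1, 18 members were called lower, without AS2 replicate 2, 6, and without AS2 replicate 1, 2. The calls of IFIT1 and IFIT2 held without each of the 6 arrays (largest adjusted p = 0.032 and 0.0239). IFIT3, IFI44, IFIH1 and HERC5 lost theirs without AS2 replicate 1 (adjusted p = 0.118, 0.0578, 0.0578 and 0.184), HERC6, OASL, CXCL10 and DDX58 without either AS2 array (largest adjusted p = 0.37, 0.256, 0.283 and 0.231), and RSAD2 without either AS2 array or AS1 replicate 2 (largest adjusted p = 0.588).

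**Figure D4:**
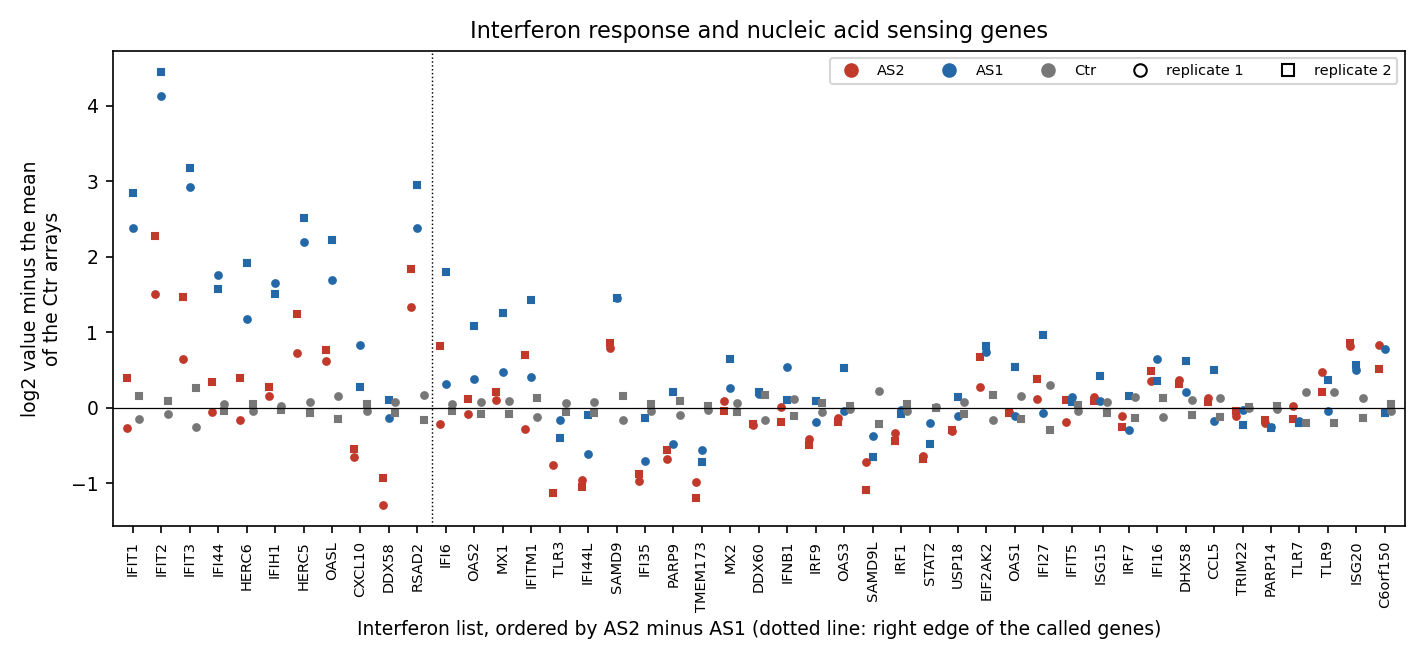
The log2 value on each array minus the mean of the 2 Ctr arrays, for the 45 genes of the interferon list in order of AS2 minus AS1, with AS2 in red, AS1 in blue and Ctr in grey, replicate 1 as circles and replicate 2 as squares. Left of the dotted line stand the 11 called genes, each with both AS1 points above both AS2 points.

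PTGS2, the inducible cyclooxygenase of prostaglandin synthesis, was the only called gene of 27 secreted inflammatory factors and enzymes, against 1.08% of all genes tested. It stood at 6.49 and 6.51 with AS2, 7.28 and 7.20 with AS1, and 5.46 and 5.59 with Ctr (-0.74 ± 0.13, adjusted p = 0.0225 in limma). Both oligonucleotides were above Ctr, by 0.98 for AS2 (adjusted p = 0.000448) and 1.72 for AS1 (adjusted p = 2.98e-05). The list had a median difference of -0.14, with 21 of 27 negative. PTGS2 was not called without AS1 replicate 1 or either AS2 array (largest adjusted p = 0.304, difference -0.78 to -0.70).

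The genes that AS2 took farther above Ctr were mostly dim in Ctr cells. MRGPRX4, a G protein-coupled receptor known from sensory neurons, stood at 6.56 and 6.93 with AS2, 4.94 and 4.67 with AS1, and 4.72 and 3.91 with Ctr (1.94 ± 0.24, adjusted p = 0.00556 in limma), raised against Ctr by 2.43 with AS2 (adjusted p = 8.96e-05) and measuring 0.49 with AS1 (adjusted p = 0.192). GDF9, a growth factor known from oocytes, stood at 7.44 and 7.61 with AS2, 6.79 and 5.98 with AS1, and 4.55 and 4.50 with Ctr (1.14 ± 0.22, adjusted p = 0.0392). It rose against Ctr with both, by 3.0 with AS2 (adjusted p = 1.49e-05) and 1.86 with AS1 (adjusted p = 0.000333). ZNF438, a zinc finger protein, stood at 7.67 and 7.94 with AS2, 6.54 and 6.53 with AS1, and 6.19 and 6.22 with Ctr (1.27 ± 0.14, adjusted p = 0.00193). POLN, a DNA polymerase, differed by 1.09 ± 0.13 (adjusted p = 0.00586) and CCDC46, a centrosomal protein now named CEP112, by 1.08 ± 0.19 (adjusted p = 0.0293).

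HOXA2 was the only called member of 31 tested genes in a list of HOX genes, against 1.08% of all genes tested. The list also names TBX2, TBX4, TBX5 and FOXF1. HOX genes set position along the body axis and stay on in fibroblasts. HOXA2 stood at 7.90 and 7.94 with AS2, 6.99 and 6.81 with AS1, and 7.0 and 7.13 with Ctr (1.02 ± 0.13, adjusted p = 0.00689), so that only AS2 was high. This mixed list had a median difference of 0.12 with 24 of 31 positive, against 8170 of all 15417 genes. Both AS2 arrays were above both AS1 arrays for 14 of the 31, against 2627 of all genes. Lists of epithelial, leukocyte and endothelial markers, dimmer in Ctr, also had positive medians, of 0.21, 0.12 and 0.04. In these the AS2 arrays were both above for 2 of 9, 2 of 7 and 1 of 9. ZNF438 lost its call without AS2 replicate 2 (adjusted p = 0.0723), and MRGPRX4, GDF9, POLN, CCDC46 and HOXA2 theirs without either AS2 array (largest adjusted p = 0.159, 0.402, 0.143, 0.335 and 0.159).

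Over all genes tested, 4 were called against Ctr with opposite signs for the oligonucleotides. TTC27 stood at 8.07 and 8.35 with AS2, 7.07 and 6.93 with AS1, and 7.47 and 7.75 with Ctr, a rise of 0.60 with AS2 (adjusted p = 0.0182 in limma) and a fall of 0.61 with AS1 (adjusted p = 0.0183). SRPK2, a kinase of SR splicing factors, was the only called gene of 45 hnRNP and splicing regulators, against 1.08% of all genes tested. It stood at 7.05 and 7.18 with AS2, 8.41 and 8.13 with AS1, and 7.73 and 7.84 with Ctr. Against Ctr this was a fall of 0.67 with AS2 (adjusted p = 0.00697 in limma) and a rise of 0.48 with AS1 (adjusted p = 0.0352). SH3RF1, a scaffold of JNK signalling, stood at 8.55 and 8.63 with AS2, 9.69 and 9.71 with AS1, and 8.97 and 9.11 with Ctr. TMEM140 stood at 5.71 and 5.64 with AS2, 6.59 and 6.86 with AS1, and 6.38 and 5.99 with Ctr. For all 4 the Ctr arrays lay between the AS2 and the AS1 arrays. Between AS2 and AS1 they differed by 1.21 (TTC27), -1.16 (SRPK2), -1.11 (SH3RF1) and -1.05 (TMEM140), and all 4 calls were lost without either AS2 array (largest adjusted p = 0.15, 0.165, 0.118 and 0.242).

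Genes of the cell cycle, of p53 and of splicing, for which MALAT1 loss is studied in these cells, were counted in the same way. Among 56 genes of mitosis and G2/M, 55 of DNA replication and G1/S, 35 p53 targets, 17 cell cycle regulators of the MYB, FOXM1, E2F and RB families and 19 SR splicing factors, 0 were called, which at 1.08% of all genes called does not set these lists apart. Negative differences were seen in 43 of the 56 mitosis genes and 42 of the 55 replication genes, against 7247 of all 15417 genes. The 95% interval excluded a difference over 2-fold for 55, 55, 34, 17 and 19 of them, against 98.4% of all genes tested. MYBL2, the transcription factor B-MYB, stood at 7.67 and 7.33 with AS2, 7.56 and 7.54 with AS1, and 8.53 and 9.0 with Ctr (-0.05, interval -0.44 to 0.34, between AS2 and AS1). CDKN1A, the CDK inhibitor p21, stood at 11.29 and 11.36 with AS2, 11.44 and 11.38 with AS1, and 10.80 and 10.73 with Ctr (-0.09, interval -0.36 to 0.19). DLGAP5, a mitotic spindle protein, differed by 0.01 (interval -0.37 to 0.39), with 4.96 and 5.03 with AS2, 5.18 and 4.79 with AS1, and 7.69 and 8.06 with Ctr. The mitosis list had a median difference of -0.16. Its mean was 6.91 and 6.76 on the AS2 arrays, 7.18 and 6.78 on the AS1 arrays, and 7.86 and 8.12 on the Ctr arrays. AS1 replicate 1 was thus the highest of the 4 AS2 and AS1 arrays. That array also had the most MALAT1 signal of the 4, and a link was not tested. It was the highest as well for the 11 reference genes (9.47, against 9.27 and 9.40 with AS2 and 9.35 on AS1 replicate 2), but not for the 15 ribosomal protein genes.

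Lists that bear on the handling of oligonucleotides and on stress also held 0 calls, too few genes at a share of 1.08% for that to set them apart. These were 20 genes of RNase H and nuclear RNA decay (median difference -0.07), 11 oligonucleotide-binding and paraspeckle proteins (0.00), 25 endosomal and lysosomal genes (-0.19), 26 NRF2 and antioxidant genes (-0.16) and 28 of the ATF4 and amino acid response (-0.14). Both AS2 arrays were below both AS1 arrays for 16 of the 26 NRF2 genes, of which 23 had a negative difference, for 15 of the 28 ATF4 genes and for 13 of the 25 endosomal genes, against 2976 of all 15417 genes. In the decay list this held for 4 of 20, and in the oligonucleotide-binding list for 3 of 11. HMOX1, the heme oxygenase that oxidative stress induces, was the nearest to a call of the genes looked at singly, at 10.72 and 10.56 with AS2, 11.26 and 11.17 with AS1, and 8.07 and 8.16 with Ctr (-0.58 ± 0.13, adjusted p = 0.0797). Fibroblast markers were bright on all 6 arrays, with a mean of 9.57 and 9.82 with AS2, 9.91 and 9.90 with AS1, and 10.02 and 10.16 with Ctr, and 0 of 14 were called (median difference -0.28, with 12 negative). Epithelial, endothelial and leukocyte markers had means of 5.08 to 5.95 on the 6 arrays and no call among 9, 9 and 7 genes. The endothelial receptor TEK was the exception in level, at 7.82 to 8.94.

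In some genes the difference between AS2 and AS1 was much larger in one run of probesets than in the rest. The F test of limma diffSplice, which asks whether the probesets of a gene differ unequally between AS2 and AS1, called 78 of 7844 genes (0.994%). They made up 19 of the 47 tested genes called lower with AS2 (40.4%) and 12 of 51 called higher (23.5%), against 47 of 7746 genes not called (0.607%), so most unequal genes had no call as a whole. Both kinds of call come from the same contrast on the same arrays, so they are not independent of each other. The F test takes one spread for all probesets of a gene. Under a test that does not (the probeset minus its gene, in limma) no probeset of 112243 was called, with 6428 at an unadjusted p under 0.05. Below, each gene is described by the single step in probeset order that splits its differences best, chosen on these values and given without a test. The steps take in all probesets of a gene, also any too dim for the F test, as with 20 against 18 for SLCO3A1. The step explained from 15.3% (MINK1) to 87.0% (DDX3X) of the variation among a gene's probeset differences. It was 26.7% for ASAP2, 28.6% for SLCO3A1 and 36.2% for FAM13A1, so the runs are not always clean blocks.

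SEC11A, a subunit of the signal peptidase, had 3 probesets at its start, in order of number, with a mean difference of -2.15 between AS2 and AS1, and 7 after them with -0.43. Among those 7, probeset 3637030 still differed by -1.75 (8.08 and 8.53 with AS2, 10.05 and 10.06 with AS1). Another of them, 3637028, was dim, at 3.64 and 3.13 with AS2 and 3.64 and 3.39 with AS1. At the first probeset, 3637007, SEC11A stood at 5.31 and 5.61 with AS2, 8.22 and 8.21 with AS1, and 8.15 and 8.03 with Ctr. Only the AS2 arrays were low there. PTPN13, a protein tyrosine phosphatase, had 46 probesets with -1.31 and a last 11 with -0.52. Its probeset 2734743, among those last, stood at 11.18 and 11.08 with AS2, 11.28 and 11.25 with AS1, and 11.47 and 11.33 with Ctr, so the loss with AS2 was nearly gone. ZFP106, now named ZNF106, had 14 probesets with -0.34 and 18 with -1.17.

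USP34, a deubiquitinase, was not called as a gene (0.02, adjusted p = 0.99) and yet split in 61 probesets with a mean of 0.25 and a last 22 with -0.62, all 22 lower with AS2. Against Ctr the first 61 averaged 0.81 with AS2 and 0.56 with AS1, and the last 22 averaged -0.35 with AS2 and 0.27 with AS1. ASAP2 was low with AS2 in 32 of its 33 probesets (mean -1.58), while probeset 2468812, the first by number, stood at 9.34 and 9.25 with AS2, 9.31 and 9.44 with AS1, and 9.52 and 9.28 with Ctr. SLCO3A1 had 17 probesets with -1.95 and 3 with -0.11, and its probeset 3608908 stood at 3.87 and 4.18 with AS2, 8.04 and 7.76 with AS1, and 7.79 and 8.52 with Ctr.

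FAM13A1, now named FAM13A, had 18 probesets with -0.52 and 11 with -1.39, and SH3RF1 had 11 with -0.85 and 6 with -1.59. DDX3X, an RNA helicase, was not called as a gene (0.14, adjusted p = 0.855). Its first 17 probesets averaged -0.02 and its last 3 averaged 1.07. Those 3 were far above Ctr with either oligonucleotide, by 4.43 with AS2 and 3.36 with AS1, as at probeset 3974889, with 9.98 and 9.60 with AS2, 8.89 and 8.41 with AS1, and 4.19 and 3.72 with Ctr. MINK1, a kinase, was higher with AS2 by 1.06 over its first 8 probesets and 0.61 over the other 27, and these runs overlapped widely (0.18 to 1.79 and -0.21 to 1.43). The adjusted p of the F test ran from 3.28e-15 (SLCO3A1) to 8.57e-08 (MINK1) over these 10 genes. PTPN13 lost this call without AS2 replicate 1 (adjusted p = 0.308) and USP34 without AS1 replicate 1 (0.142). The other 8 were called without each array for which they passed the brightness filter, which for SLCO3A1 were 2 of the 6. Over all genes, 16 were called without AS2 replicate 1, 39 without AS1 replicate 1 and 261 without AS2 replicate 2. As whole genes, SEC11A (-0.95), PTPN13 (-1.16), ZFP106 (-0.81), FAM13A1 (-0.85) and MINK1 (0.71) were called, and lost the call without either AS2 array (largest adjusted p = 0.192, 0.165, 0.3, 0.493 and 0.363). ZFP106, FAM13A1 and MINK1 also lost it without AS1 replicate 1.

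**Figure D5:**
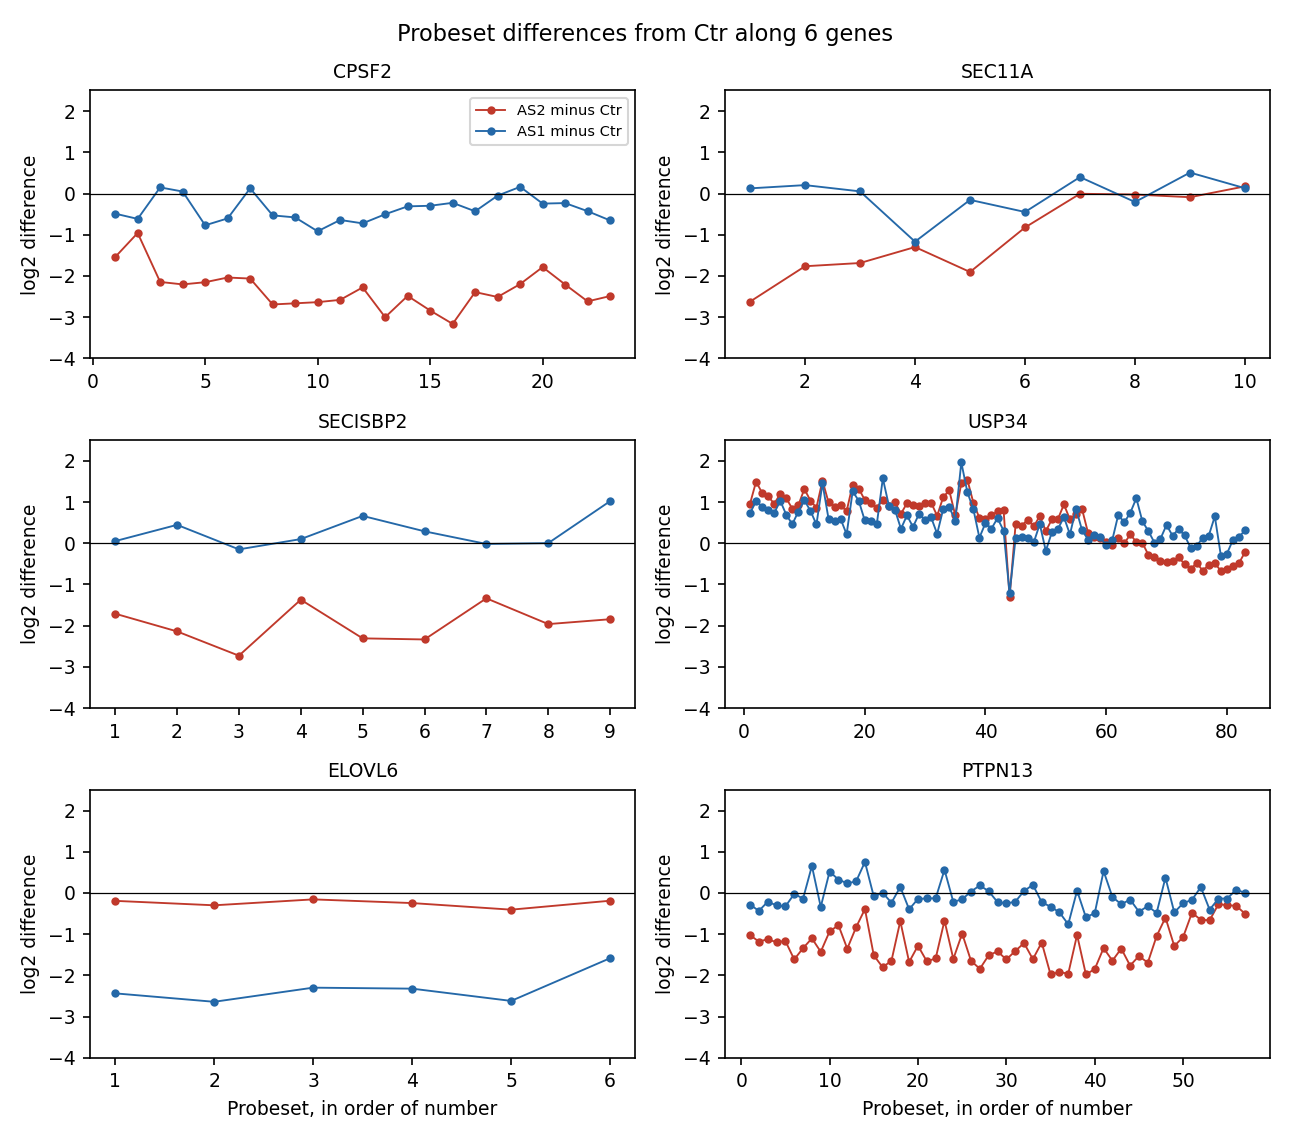
The mean log2 difference from Ctr of each probeset, in order of number, for AS2 (red) and AS1 (blue) in 6 genes, each line joining the probesets of a gene. CPSF2, SECISBP2 and ELOVL6 differ along their whole length, SEC11A and PTPN13 differ at the start and meet near the end, and USP34 parts over its last 22 probesets.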

How the data were processed

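RNA of 6 WI38 samples was measured on Affymetrix exon arrays. The deposited values are log2 values that the authors made with RMA and Partek (versions and build: not given in the sources used here). No further normalization was applied. An array has no read depth, so the number of arrays limits precision. Of 232479 probesets, 216780 carry 1 gene symbol, 2335 several and 13364 none, from the platform's annotation, which can be old. Genes were summarised as the mean over their own probesets, with at least 3 required.

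In limma 3.58.1 (R 4.3.3), 1 fit to all 6 arrays and 3 groups (AS2, AS1, Ctr; 3 residual and 7.45 prior degrees of freedom) gave every gene-level p, standard error (±) and 95% interval, with Benjamini-Hochberg adjustment over all genes and calls at 0.05. Probesets and diffSplice used the same groups; diffSplice took probesets from the 25th percentile of brightness up, in genes from the median up. The scripts were tested on simulated data. Alternatives were other summaries, filters, normalizations and fits, and leaving out each array.

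Named were MALAT1, the 15 highest and 15 lowest called genes, up to 4 called members per list (35 lists, 4 of markers beside them), opposite signs against Ctr, and the 10 genes with the smallest p in the F test. The other interferon list genes, MYBL2, CDKN1A, DLGAP5 and HMOX1 were named after their values were seen. Members and lists were chosen with earlier results of these data known.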

Additional observations from a re-analysis of the deposited data

Results flagged for a closer look

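The genes TTC27 (1.21 between AS2 and AS1), SRPK2 (-1.156), SH3RF1 (-1.114) and TMEM140 (-1.054) are listed here because the effects of AS2 and AS1 against the same Ctr arrays pointed in opposite directions and the difference itself passed the test in limma (adjusted p = 0.00643, 0.00556, 0.00334 and 0.0135). Both contrasts share the Ctr arrays. Groups of 2 arrays were not screened for outlying samples.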

How the results depend on the processing

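All 166 genes called between AS2 and AS1 kept their sign in every alternative that measured them, while their number moved. It was 31 with the median of a gene's probesets (9 higher and 22 lower with AS2, against 88 and 78), 110 with genes of at least 1 probeset, 274 with a fit to the AS2 and AS1 arrays alone, 398 with the trend and robust options, 57 at the threshold of the methods (an unadjusted p under 0.001 and over 2-fold), and 0 without moderation of the spread, where 1336 genes had an unadjusted p under 0.05 (1447 in limma). Brighter probesets, a filter on dim genes, quantile normalization again and centring gave 165, 215, 179 and 154. Leaving out 1 array gave 13 to 274, with the lone array of a group assumed to vary like the others, and the share higher with AS2 ran between 20% and 64.6%.

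Replicate numbers did not pair the arrays: deviations from the group mean correlated at -0.343 (AS2 and AS1), 0.392 (AS2 and Ctr) and -0.509 (AS1 and Ctr). With the replicate block 84 genes were called, and with AS1 crossed, an alternative chosen after seeing the data, 553.

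The 11 interferon genes called lower became 5 with the median of probesets, 5 with the filter on dim genes, 0 without moderation, and 2 to 18 with 1 array left out. MALAT1 ran between -1.07 and 0.34 with 1 array left out, reversed without AS1 replicate 1 (0.34). Genes with unequal probeset differences numbered 192 by the Simes test, 16 to 261 with 1 array left out, and 0 by the splicing index, also chosen after seeing the data. The causes were not tested.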
